A study of Mus musculus with 4 samples.

Results

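The Trim genes form a large family of ubiquitin ligase genes, and their transcripts were measured by RNA-seq in sorted mouse embryonic stem (ES) cells. The members were all gene symbols of the deposited RefSeq table that begin with Trim and a digit, apart from Trim28 and Trim71, which were not analysed here, and no minimum level was asked of them. The rule found 57 of the 19797 symbols in the table, with 69 of its 24538 transcripts. The cells were MC1-ZE7, ES cells of strain MC1 (129S6/SvEvTac) in which Emerald, a fluorescent protein, reports Zscan4. Zscan4 is a gene cluster active in 2-cell embryos and, at any moment, in a minority of ES cells. Em+ cells were the fraction sorted for high Emerald fluorescence and Em- cells were the fraction without it, with 2 libraries of each. All 4 libraries came from the same reporter line, grown without feeders on gelatin in serum and LIF, with no other treatment or allele named in the labels. Whether libraries of the same fraction stem from different cultures or sorts is not stated, so the p-values reflect only their spread, which may be technical.

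Tripartite motif (TRIM) proteins are built from a RING domain, which binds an E2 enzyme and passes ubiquitin to a target, followed by B-box zinc fingers and a coiled coil through which the proteins pair. What follows the coiled coil differs between members and usually reads the target: a SPRY domain in most, an NHL propeller, a PHD finger with a bromodomain, or a COS box that binds microtubules. Many members act in antiviral defence, several are induced by interferon, and others control transcription, the centrosome, muscle protein turnover or, through NHL domains, neurons and RNA. The name ubiquitin ligase does not suit every member, since Trim14, Trim16, Trim29, Trim44 and Trim66 are known to lack a RING.

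The RefSeq table held 16468218 to 17927765 counts in the Em+ libraries and 18364973 to 18953217 in the Em- libraries, and those of Em- replicate 1 were computed from its FPKM because its deposited count column holds only 0. The 2-cell-stage list of 10 genes, which includes the Zscan4 cluster, summed to 299 and 316 CPM, a depth-scaled count, in Em+ cells and to 2.20 and 3.27 CPM in Em- cells, which goes with the sample titles. In all 4 samples the description field gives the other fraction than the title does. The 6 ES cell markers summed to 3567 and 3285 CPM in Em+ cells, against 3660 and 3618 CPM in Em- cells. Of these, 2 were higher and 3 lower at an unadjusted p under 0.05. Pou5f1 stood at a log2 fold change of -0.27, Sox2 at -0.29 and Esrrb at -0.19, and none of the 3 was called by edgeR. DESeq2 called 1 of the 6 markers lower, and limma called 0 lower. Nanog was called higher in Em+ cells, with a log2 fold change of 0.48 (edgeR SE 0.08, adjusted p = 0.0192). The call was lost when either Em- library was left out (log2 fold change 0.44 lacking replicate 1 and 0.51 lacking replicate 2). It was also lost without TMM scaling and with depth from the total reads behind FPKM (edgeR adjusted p = 0.26). In limma with pseudocounts of 1 (adjusted p = 0.304) and 0.1 (adjusted p = 0.346) the call was lost too. Of 6 fibroblast markers, Col3a1, Dcn and Lum had no entry and the other 3 summed to 24.03 and 23.8 CPM in Em+ cells, against 12.1 and 13.1 CPM in Em- cells. Thy1 made most of that sum and was higher in Em+ cells, with a log2 fold change of 0.89 (edgeR SE 0.11, adjusted p = 0.00386), a call lost in limma with pseudocounts of 1 (adjusted p = 0.101) and 0.1 (adjusted p = 0.0755). Other marker lists also summed higher in both Em+ libraries, but edgeR called 0 of their tested genes, and not all of their genes were higher. Primitive endoderm markers summed to 20.5 and 20.5 CPM in Em+ cells, against 18.6 and 18.6 CPM in Em- cells. Trophectoderm markers summed to 74.2 and 73.9 CPM, against 67.3 and 68.3 CPM. Neural markers summed to 56.1 and 49.6 CPM, against 47.0 and 44.9 CPM. Among them Tubb3 had 26.7 and 23.0 CPM in Em+ cells, against 18.7 and 17.8 CPM in Em- cells. Sox1 was lower, with 5.69 and 6.44 CPM in Em+ cells, against 6.76 and 7.43 CPM in Em- cells. Gata4, the primitive endoderm marker tested, stood at a log2 fold change of -0.08 (edgeR SE 0.13, adjusted p = 0.733). The part of these markers in the results on Trim genes was not tested. Rn45s, a model of ribosomal RNA precursor, took 7.95% of the counts of Em+ replicate 2 and 3.93 to 4.33% of those of the other libraries, and FPKM, the deposited level per length and depth, ran low in that library.

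Trim75, Trim12c and Trim2 were the members that differed between Em+ and Em- cells in the edgeR test over all genes, and the 300 bases around their start sites are shown with those of paralogs beside them on the chromosome. Each runs from 250 bases before to 50 bases after a RefSeq start site (GRCm38.p6, the assembly behind mm10), all on the minus strand and written 5′ to 3′. The first is Trim75 at chr8:64987595-64987894, the next the promoter that Trim60 and Trim61 share at chr8:65018639-65018938, then Trim12c at chr7:104353300-104353599 and Trim30a at chr7:104465144-104465443, and last Trim2 at chr3:84270734-84271033, the start of the deposited model. Capitals mark a match to 1 of 3 motifs on either strand: TGCACAC, known to be bound by Zscan4, GATTNAATC, the core of the sequence bound by Dux, and TTTCNNTTT, the core of the interferon-stimulated response element. No match overlapped another in these sequences.
Trim75: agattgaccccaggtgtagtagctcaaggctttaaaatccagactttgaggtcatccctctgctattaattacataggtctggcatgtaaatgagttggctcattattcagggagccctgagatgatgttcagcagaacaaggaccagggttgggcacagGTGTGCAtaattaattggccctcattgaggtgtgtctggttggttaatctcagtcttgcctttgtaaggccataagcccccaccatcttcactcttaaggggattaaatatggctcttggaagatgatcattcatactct
Trim60 and Trim61: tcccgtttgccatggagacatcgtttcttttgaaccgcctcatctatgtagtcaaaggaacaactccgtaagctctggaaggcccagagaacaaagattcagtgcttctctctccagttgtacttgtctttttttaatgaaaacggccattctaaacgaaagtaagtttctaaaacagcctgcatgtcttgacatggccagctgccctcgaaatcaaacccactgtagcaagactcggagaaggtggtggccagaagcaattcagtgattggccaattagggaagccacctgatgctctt
Trim12c: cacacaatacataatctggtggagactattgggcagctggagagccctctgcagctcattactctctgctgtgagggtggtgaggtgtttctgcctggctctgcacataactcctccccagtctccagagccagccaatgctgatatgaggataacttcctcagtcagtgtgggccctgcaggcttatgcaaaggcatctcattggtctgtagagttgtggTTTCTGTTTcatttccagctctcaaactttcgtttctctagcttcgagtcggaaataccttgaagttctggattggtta
Trim30a: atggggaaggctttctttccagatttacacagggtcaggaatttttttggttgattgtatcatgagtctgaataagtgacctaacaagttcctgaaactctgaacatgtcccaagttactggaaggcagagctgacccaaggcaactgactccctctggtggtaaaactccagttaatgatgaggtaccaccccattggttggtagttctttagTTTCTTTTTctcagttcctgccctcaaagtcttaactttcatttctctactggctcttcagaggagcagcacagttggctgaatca
Trim2: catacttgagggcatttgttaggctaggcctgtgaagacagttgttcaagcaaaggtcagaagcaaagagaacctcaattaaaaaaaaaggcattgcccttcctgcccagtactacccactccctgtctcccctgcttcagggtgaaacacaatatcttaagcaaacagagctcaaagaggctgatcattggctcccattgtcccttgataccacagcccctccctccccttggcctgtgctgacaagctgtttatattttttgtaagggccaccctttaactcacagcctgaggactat

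In the promoter of Trim75 the letters GTGTGCA, the reverse complement of TGCACAC, begin at -90 from the start site. This motif was found in 4.40% of 32851 mouse promoters of the same length, the Dux core in 0.268% and the interferon motif in 10.6%. By gene, TGCACAC was found for 5.02% of the 27025 genes with a promoter, and for 2 of the 43 members that had one, Trim75 and Trim10. The interferon motif begins at -29 in Trim12c, as TTTCTGTTT, and at -36 in Trim30a, as TTTCTTTTT. It was found for 11 of the 43 members, or 25.6%, and for 12.1% of genes. They were Trim2 (at a start site other than the one shown), Trim12c, Trim21, Trim26, Trim30a, Trim30d, Trim34a, Trim38, Trim43a, Trim54 and Trim56. The Dux core was found for 0 of the 43 members and for 0.307% of genes. These matches describe letters and were not tested as sites.

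Trim genes spanned a wide range of levels in both fractions, and few members differed between Em+ and Em- cells. By FPKM, which is per transcript length and so compares genes, 11 members had a mean of at least 10 over the 4 libraries, 20 lay between 1 and 10, and 26 lay below 1, of which 20 were under 0.5. Trim6 led at 25.8 FPKM, followed by Trim59 at 22.0, Trim44 at 20.2, Trim25 at 18.9, Trim24 at 18.5, Trim37 at 17.7, Trim27 at 17.0 and Trim23 at 14.3 FPKM. The single libraries of these leading genes interleave, so that, for example, Trim44, Trim25 and Trim24 cannot be put in order beyond their spread. Summed over the 57 members, the level was 287 and 251 FPKM in the Em+ libraries and 282 and 286 FPKM in the Em- libraries. In CPM, scaled by TMM, an edgeR method that sets the bulk of genes equal between libraries, the sums were 2389 and 2429.9 in Em+ cells and 2293 and 2324 in Em- cells. Without Trim75 they were 2348 and 2384 CPM in Em+ cells, against 2292 and 2323 CPM in Em- cells.

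**Figure D1:**
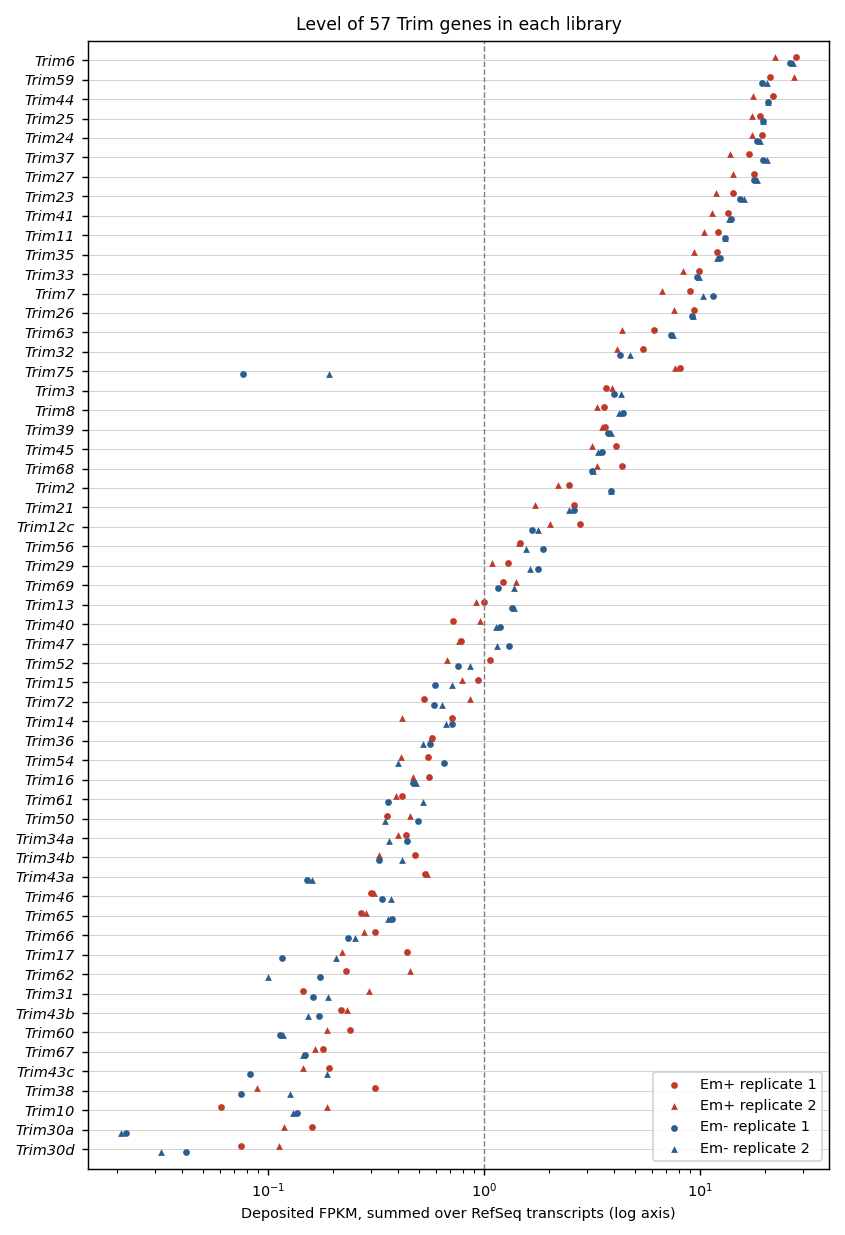
Level of each of the 57 Trim genes in every library, as deposited FPKM summed over RefSeq transcripts on a log axis, ordered by the mean of the 4 libraries; red points are Em+ and blue points Em- libraries, and the dashed line marks 1 FPKM. Trim75 is the gene whose red points (8.09 and 7.70 FPKM) stand far to the right of its blue points (0.077 and 0.192 FPKM).

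The 31 members with a mean of at least 1 FPKM were tested among 12050 genes with edgeR's quasi-likelihood test and Benjamini-Hochberg adjustment over all of them. Trim75 and Trim12c were higher in Em+ cells, which is 2 members against a background of 3.82% of all genes tested. Trim2 was lower, which is 1 member against a background of 0.822%. Counts this small do not set the family apart from other genes. The remaining 28 did not pass an adjusted p of 0.05. Trim75 passed the minimum level through its Em+ libraries alone, Trim13, Trim40 and Trim47 through their Em- libraries alone, and 27 members in both groups. The median log2 fold change of Em+ over Em- was 0.02 over the tested members and 0.00 over all genes tested, and the median size of the change was 0.16 and 0.14. A change under 0.25 in size was measured for 20 of the 31 members and for 73.9% of all genes, and Trim75 was the member past 1. At an unadjusted p under 0.05 there were 6 higher and 6 lower members, against 25.3% of all genes in either direction.

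The count of calls turned on single libraries and on scaling. A fit that leaves 1 library in a group takes its spread from the other group alone, so a pass there is weak evidence. Without Em+ replicate 1 there were 6 higher and 4 lower members, with 4992 genes called in all against 559 in the full fit. Without Em+ replicate 2 there were 6 higher and 2 lower members and 1968 genes in all. Without Em- replicate 1 there was 1 of each, and without Em- replicate 2 there were 3 higher and 1 lower. In the fit without TMM scaling, depth was also taken from the total reads behind FPKM in place of the counts of tested genes. It gave 1 higher and 2 lower members. Its split over all genes was 334 higher to 293 lower, against 460 to 99 in the full fit. RefSeq counts were 49.0 and 43.4% of those totals in Em+ cells, and 51.1 and 50.7% in Em- cells. The TMM factors were 1.013 and 0.975 in Em+ cells, and 1.001 and 1.011 in Em- cells. The parts of TMM and of the totals were not tested apart. In TMM-scaled CPM, both Em+ libraries lay above both Em- libraries for 11 of the 31 members and below them for 10, while 10 overlapped. Over all genes tested this was so for 29.8% and 29.6%, so the family was near the background.

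**Figure D2:**
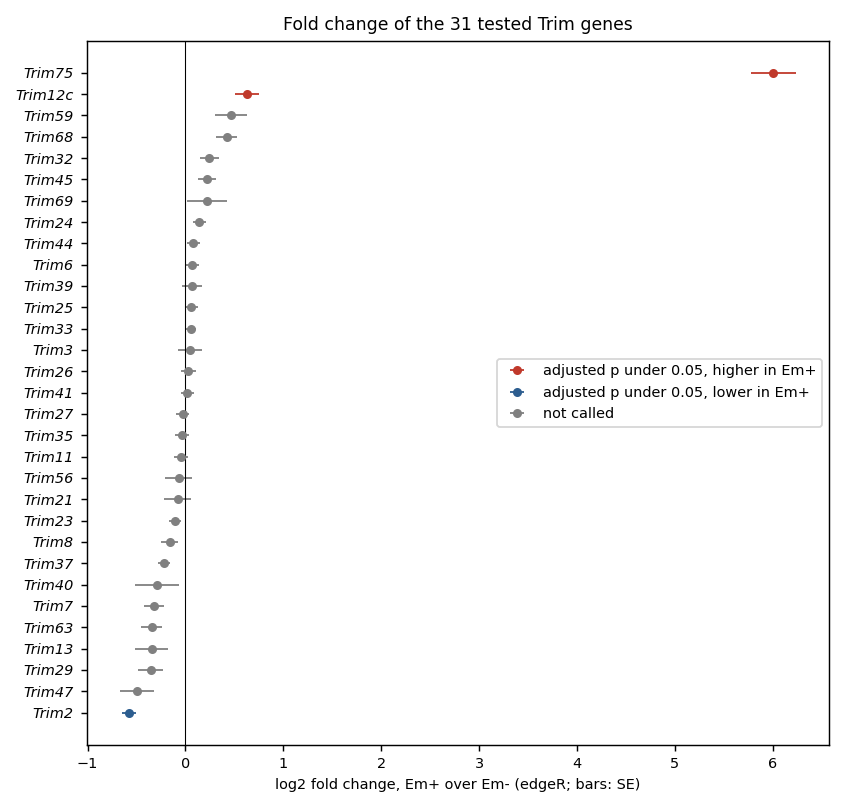
Log2 fold change of Em+ over Em- for the 31 tested Trim genes (edgeR, bars are the SE), ordered by size. Trim75 at 6.01 and Trim12c at 0.63 (red) were higher in Em+ cells, Trim2 at -0.57 (blue) was lower, and the grey genes did not pass; the sign of Trim6, Trim24, Trim25 and Trim44 was negative without TMM scaling, and that of Trim27 was positive without Em+ replicate 2.

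Trim75 had by far the largest change in the family and was close to silent in Em- cells. It lies on chromosome 8 from 64981651 to 64987644 (mm10) on the minus strand, as a SPRY member with 2 exons and a coding part of 1401 bases free of introns. Trim75 had 741 and 731 counts in the Em+ libraries, against 7 and 18 counts in the Em- libraries. Scaled, these were 41.3 and 46.2 CPM in Em+ cells, against 0.385 and 0.949 CPM in Em- cells. Every Em+ value lay far above every Em- value. The mean of 43.7 ± 3.43 CPM in Em+ cells, against 0.667 ± 0.399 CPM in Em- cells (n = 2 each, SD), is a ratio of 65.6. The log2 fold change was 6.01 (edgeR SE 0.23, adjusted p = 5.87e-06). In bulk libraries, more cells with the transcript and more transcript in each cell cannot be told apart. The Em- counts are few, and leaving out Em- replicate 1 gave a log2 fold change of 5.51, leaving out Em- replicate 2 one of 6.80. On log2(FPKM + 1) it was 2.97, since the pseudocount shrinks a change that starts near 0.

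Most reads of Trim75 were assigned to its coding part where a table lists that part by itself. No annotated gene overlaps it, and none of its 3484 stretches of 50 bases occurs in another GENCODE gene. In the known-gene table, which lists the coding part as a model of its own from 64982393 to 64983796, that model had 609 and 596 counts in Em+ cells, against 4 and 14 counts in Em- cells. The full-length model there had 98 and 86 counts in Em+ cells, against 2 and 5 counts in Em- cells, with reads split between the models by a rule not given in the sources used here.

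Of the genes next to Trim75, Trim60 and Trim61 lay below the minimum level and were not tested in the full fit, and the others were not called. In the fit without a minimum level, Trim60 stood at a log2 fold change of 0.98 (edgeR SE 0.30, adjusted p = 0.0951). Trim61 stood at -0.02 there (edgeR SE 0.27, adjusted p = 0.975). Trim60, a paralog of Trim75 at 64998448 to 65018688, had 32 and 26 counts in Em+ cells, against 15 and 16 counts in Em- cells. Trim61, which overlaps Trim60 on the same strand and starts at the same base, had 33 and 32 counts in Em+ cells, against 28 and 42 counts in Em- cells, so their groups did not overlap for Trim60 and overlapped for Trim61. Reads of this pair may have been divided between them in counting. On the other side, Tmem192 stood at a log2 fold change of -0.03 (edgeR SE 0.10, adjusted p = 0.886). Klhl2, beyond it, stood at -0.15 (edgeR SE 0.09, adjusted p = 0.322).

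Trim12c, a SPRY gene of the mouse Trim5 group, whose primate counterpart blocks incoming retroviruses, stood 1.55 times as high in Em+ as in Em- cells. It lies on chromosome 7 from 104338754 to 104353358 and has 8 exons. Trim12c had 20.6 and 17.5 CPM in the Em+ libraries, against 11.9 and 12.7 CPM in the Em- libraries. The groups did not overlap, and the Em+ libraries lay farther apart from each other than the Em- libraries did. Its means were 19.0 ± 2.18 CPM in Em+ cells, against 12.3 ± 0.552 CPM in Em- cells (n = 2 each, SD), a log2 fold change of 0.63 (edgeR SE 0.12, adjusted p = 0.0325). The call was lost without Em- replicate 1 (0.58, adjusted p = 0.0658), without TMM scaling (0.48, adjusted p = 0.0843), in limma on log2(FPKM + 1) (0.31, adjusted p = 0.288) or log2(FPKM + 0.1) (0.44, adjusted p = 0.269), and in the Ensembl (0.55, adjusted p = 0.109) and ENCODE tables (0.54, adjusted p = 0.109), among 16 alternatives whose adjusted p ran from 0.00196 to 0.288. Of the 3668 stretches of 50 bases in its transcripts, 33.0% occur in other genes, most of them in Trim5, so its reads are less certain than those of Trim75. Its 2 RefSeq models held 365 and 4 counts in Em+ replicate 1, and the known-gene table gave the same 2 counts to the opposite models, so these counts do not show which isoform was made.

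Trim2 was the member called lower in Em+ cells. It is an NHL ligase known in neurons, where it marks the neurofilament light chain for degradation, and lies on chromosome 3 from 84160439 to 84270783. Trim2 had 36.0 and 37.2 CPM in the Em+ libraries, against 54.5 and 54.4 CPM in the Em- libraries. Libraries of the same fraction were close to each other, and the groups did not overlap. The means were 36.6 ± 0.877 CPM in Em+ cells, against 54.4 ± 0.111 CPM in Em- cells (n = 2 each, SD), a log2 fold change of -0.57 (edgeR SE 0.07, adjusted p = 0.00477). It was called in 15 of 16 alternatives and missed the threshold in limma on log2(FPKM + 1) (-0.55, adjusted p = 0.0804). Gm6525, a model on the opposite strand within Trim2, had 7 and 11 counts in Em+ cells, against 7 and 4 counts in Em- cells. The upstream region printed for Trim2 is that of the RefSeq model counted, and the gene has other annotated starts.

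**Figure D3:**
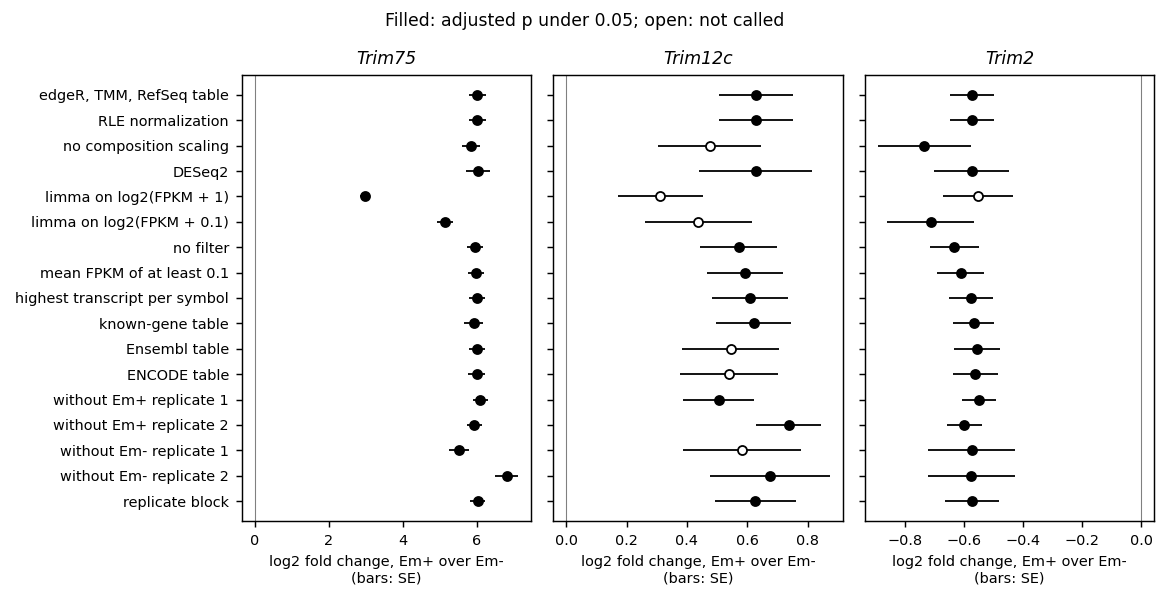
Log2 fold change of Trim75, Trim12c and Trim2 (Em+ over Em-, bars are the SE) in the full edgeR fit at the top and in 16 alternatives below it; filled points had an adjusted p under 0.05. Trim75 ran from 2.97 to 6.80 and was called throughout, Trim12c ran from 0.31 to 0.74 and was called in 10 of 16 alternatives, and Trim2 ran from -0.735 to -0.549 and was called in 15 of 16.

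The other NHL members, Trim3 and Trim32, did not pass the test. Trim32, which acts in muscle and neural progenitors, had 35.6 and 31.6 CPM in Em+ cells, against 27.0 and 29.8 CPM in Em- cells, a log2 fold change of 0.24 (edgeR SE 0.09, adjusted p = 0.166), and passed without Em+ replicate 2 (0.32, adjusted p = 0.0252). It lies within Astn2 on the opposite strand. Trim3, a neuronal ligase, had 21.4 and 26.8 CPM in Em+ cells, against 22.4 and 24.1 CPM in Em- cells, and its groups overlapped. Of 11 genes listed as partners or substrates of these ligases, among them the Argonaute genes, Dicer1 and Nefl, 10 were tested and edgeR called 0, with 2 higher and 0 lower at an unadjusted p under 0.05 and 0 called by DESeq2 or limma. Without Em+ replicate 1 the count was 9, in the fit that calls 4992 genes in all, and it was 1 without Em- replicate 2 and 2 with the replicate block. Nefl, which encodes the neurofilament light chain, had 16.1 and 14.1 CPM in Em+ cells, against 17.9 and 17.3 CPM in Em- cells, a log2 fold change of -0.22 (edgeR SE 0.11, adjusted p = 0.268).

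The SPRY class was the largest, with 34 members of which 15 were tested, and Trim75 and Trim12c were those called. Trim68, a ligase known for its work on the androgen receptor in human cells, came next by p. It had 21.2 and 19.0 CPM in Em+ cells, against 14.9 and 15.1 CPM in Em- cells, a log2 fold change of 0.42 (edgeR SE 0.11, adjusted p = 0.0705). Its groups did not overlap, and it passed when Em+ replicate 1 was left out (0.34, adjusted p = 0.0314) and likewise for Em+ replicate 2 (0.49, adjusted p = 0.0107). Trim7, known as the glycogenin-interacting protein, had 24.9 and 21.9 CPM in Em+ cells, against 30.8 and 27.8 CPM in Em- cells, a log2 fold change of -0.32 (edgeR SE 0.10, adjusted p = 0.116), and passed without Em+ replicate 1 (-0.42, adjusted p = 0.00666). Trim47, which overlaps Trim65 on the same strand, had 3.51 and 4.04 CPM in Em+ cells, against 5.66 and 4.96 CPM in Em- cells. Its log2 fold change was -0.49 (edgeR SE 0.17, adjusted p = 0.141). In each of these genes both Em+ libraries lay on 1 side of both Em- libraries.

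Among the most abundant SPRY genes the 2 fractions were close. Trim6, which restrains Myc in mouse ES cells, had 217 and 204 CPM in Em+ cells, against 198 and 203 CPM in Em- cells, a log2 fold change of 0.07 (edgeR SE 0.06, adjusted p = 0.531) that was -0.09 without TMM scaling. Trim25, which ubiquitinates the viral RNA sensor RIG-I, had 216 and 231 CPM in Em+ cells, against 214 and 215 CPM in Em- cells, a log2 fold change of 0.06 (edgeR SE 0.07, adjusted p = 0.591) that was -0.10 without TMM scaling. Trim27, also called Ret finger protein, had 152 and 142 CPM in Em+ cells, against 148 and 152 CPM in Em- cells, a log2 fold change of -0.03 (edgeR SE 0.06, adjusted p = 0.829) that was 0.02 without Em+ replicate 2. None of these 3 passed in the full fit, and Trim25 passed without Em+ replicate 1 (0.11, adjusted p = 0.0391). Trim41 had 95.9 and 94.4 CPM in Em+ cells, against 95.1 and 92.7 CPM in Em- cells. Trim35 had 89.7 and 82.8 CPM in Em+ cells, against 90.0 and 86.7 CPM in Em- cells. Trim11 had 57.6 and 58.3 CPM in Em+ cells, against 60.01 and 59.8 CPM in Em- cells, and Trim41 and Trim35 overlapped between groups while Trim11 did not.

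The rest of the tested SPRY genes were less abundant by mean FPKM, and their groups overlapped. Trim26 had 60.9 and 57.6 CPM in Em+ cells, against 57.8 and 58.2 CPM in Em- cells. Trim39 had 22.7 and 25.8 CPM in Em+ cells, against 22.8 and 23.5 CPM in Em- cells. In both genes the Em- values lay between the Em+ values. Trim21, the cytosolic receptor for antibody on incoming virus, had 14.8 and 11.6 CPM in Em+ cells, against 14.3 and 13.7 CPM in Em- cells. Trim69 had 4.40 and 5.94 CPM in Em+ cells, against 4.01 and 4.80 CPM in Em- cells, and lies in Patl2 on the opposite strand. Their log2 fold changes ran from -0.08 for Trim21 to 0.22 for Trim69.

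**Figure D4:**
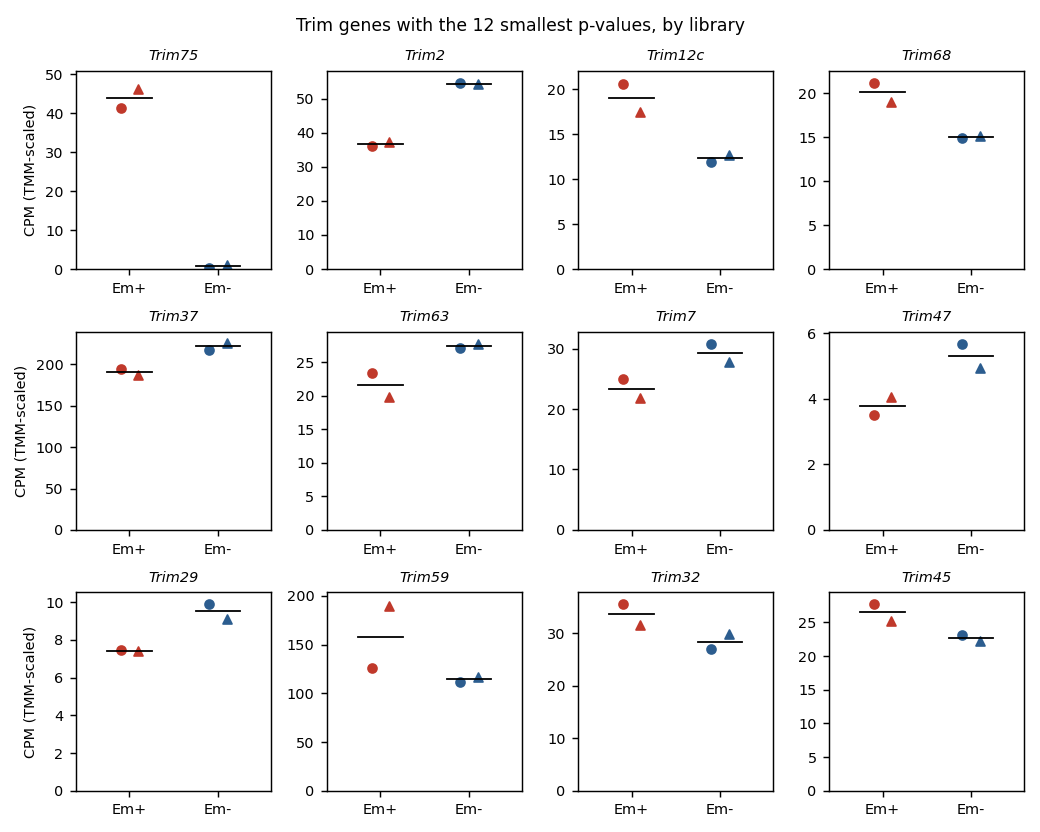
TMM-scaled CPM by library for the 12 Trim genes of smallest p-value, with Em+ libraries in red on the left and Em- libraries in blue on the right of each panel, circles for replicate 1, triangles for replicate 2 and lines at the means; each axis starts at 0. The Em+ and Em- points do not overlap in any panel, which choosing genes by p favours. Over all genes tested, both Em+ libraries lay above both Em- libraries for 29.8% and below them for 29.6%. The gap of Trim75 (41.3 and 46.2 against 0.385 and 0.949 CPM) is the widest in proportion, while the Em+ points of Trim59 (126 and 190.0 CPM) lie farther apart than its groups.

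Trim24 and Trim33, corepressors with a PHD finger and a bromodomain that read histone H3, were abundant in both fractions and did not pass. Trim24, which also directs the degradation of p53, had 228 and 242 CPM in Em+ cells, against 210.0 and 216 CPM in Em- cells, a log2 fold change of 0.14 (edgeR SE 0.07, adjusted p = 0.221). It was -0.02 without TMM scaling and passed without Em+ replicate 1 (0.18, adjusted p = 0.00448). Trim33, a regulator of Smad4 and of TGF-beta signals, had 178 and 177 CPM in Em+ cells, against 169 and 174 CPM in Em- cells, with a log2 fold change of 0.05 (edgeR SE 0.06, adjusted p = 0.620). No member of this class was called by edgeR, and 0 were called by DESeq2 or by limma or had an unadjusted p under 0.05.

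Trim59 and Trim13, which carry a membrane anchor, had values of opposite sign and did not pass. Trim59 had 126 and 190.0 CPM in Em+ cells, against 112 and 117 CPM in Em- cells, a log2 fold change of 0.46 (edgeR SE 0.17, adjusted p = 0.148). Its Em+ values lay farther apart than Em+ replicate 1 lay from either Em- library. Leaving out Em+ replicate 1 gave 0.73 (adjusted p = 3.28e-06), and the fit that lacks Em+ replicate 2 gave 0.14 (adjusted p = 0.0781), while it also passed without Em- replicate 2 (0.495, adjusted p = 0.0275) and with the replicate block (0.44, adjusted p = 0.00519). The higher Em+ value was that of replicate 2, the library rich in Rn45s, and the part of that library's composition was not tested. Trim13, a ligase of the endoplasmic reticulum, had 3.29 and 3.54 CPM in Em+ cells, against 4.29 and 4.38 CPM in Em- cells. Its log2 fold change was -0.35 (edgeR SE 0.17, adjusted p = 0.244), and it overlaps Dleu2 on the opposite strand. Of its 50-base stretches, 14.2% occur in Gm9359.

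The COS-box class, whose proteins bind microtubules, was mostly of low level in these cells. Trim63, known as MuRF1 in muscle wasting, was the member tested. It had 23.5 and 19.8 CPM in Em+ cells, against 27.2 and 27.8 CPM in Em- cells, a log2 fold change of -0.34 (edgeR SE 0.11, adjusted p = 0.108). Its groups did not overlap, and it was called lower without Em+ replicate 1 (-0.48, adjusted p = 0.0023) and, barely, without TMM scaling (-0.50, adjusted p = 0.0496). Trim36, Trim46, Trim54 and Trim67 lay below the minimum level, with 114 to 375 counts over the 4 libraries.

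Members with another or no C-terminal domain did not pass either: of 10 members 8 were tested and edgeR called 0, as did DESeq2 and limma, with 1 higher and 2 lower at an unadjusted p under 0.05. Trim37, a centrosome and peroxisome ligase mutated in mulibrey nanism, had 194 and 187 CPM in Em+ cells, against 217 and 226 CPM in Em- cells, a log2 fold change of -0.22 (edgeR SE 0.06, adjusted p = 0.0985). It was called lower in the fits that lack Em+ replicate 1 (-0.25, adjusted p = 0.00157) or, in turn, Em+ replicate 2 (-0.19, adjusted p = 0.014). Trim29 had 7.47 and 7.39 CPM in Em+ cells, against 9.89 and 9.12 CPM in Em- cells, a log2 fold change of -0.35 (edgeR SE 0.13, adjusted p = 0.147). The groups of neither gene overlapped. Trim45 had 27.8 and 25.3 CPM in Em+ cells, against 23.2 and 22.2 CPM in Em- cells, a log2 fold change of 0.22 (edgeR SE 0.09, adjusted p = 0.186), and was called higher without Em+ replicate 2 (0.29, adjusted p = 0.0447). Its groups stood apart by a small margin. Trim44, which carries a zinc finger like that of ubiquitin proteases in place of a RING, had 249.7 and 236 CPM in Em+ cells, against 229.8 and 229 CPM in Em- cells. Its log2 fold change was 0.08 (edgeR SE 0.06, adjusted p = 0.454), was -0.07 without TMM scaling, and passed without Em+ replicate 2 (0.12, adjusted p = 0.0496). Trim23, which ends in an ARF GTPase domain, had 123 and 120.3 CPM in Em+ cells, against 128 and 134 CPM in Em- cells, a log2 fold change of -0.11 (edgeR SE 0.06, adjusted p = 0.33).

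The remaining 3 of this class were lower in abundance than Trim37, Trim44 and Trim23. Trim8, known to act on Stat3 signals that keep ES cells pluripotent, had 23.7 and 25.8 CPM in Em+ cells, against 28.2 and 27.0 CPM in Em- cells. Trim56, an antiviral ligase, had 10.9 and 12.6 CPM in Em+ cells, against 13.4 and 11.2 CPM in Em- cells. Trim40 had 3.23 and 5.05 CPM in Em+ cells, against 5.17 and 4.90 CPM in Em- cells. The groups of Trim56 and Trim40 overlapped and those of Trim8 did not, with log2 fold changes of -0.07 for Trim56, -0.29 for Trim40 and -0.16 for Trim8.

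Below the minimum level lay 26 members, each with at least 20 counts in all and between 32 and 375 counts over the 4 libraries. In 13 of them both Em+ libraries lay above both Em- libraries in CPM, in 1 of them, Trim65, below, and in 12 the groups overlapped. The background for the 4928 symbols below that level with at least 20 counts was 49.4% above and 7.53% below, so these members were near the background. In a fit of all 19797 symbols without a minimum level, Trim43a and Trim30a were called higher beside Trim75 and Trim12c, and Trim2 was the member called lower. The background of that fit was 4.48% of symbols higher and 1.47% lower.

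Trim43a, a SPRY gene whose human relative TRIM43 is a gene of cleavage-stage embryos, had 36 and 38 counts in the Em+ libraries, against 10 and 11 counts in the Em- libraries. The groups lay far apart, with a log2 fold change of 1.89 in the fit without a minimum (edgeR SE 0.32, adjusted p = 0.00787), and from 1.78 to 2.00 when any 1 library was left out. Of the 50-base stretches of Trim43a, 45.8% occur in other genes, mostly its copies on chromosome 9. Trim43b had 18 and 20 counts in Em+ cells, against 14 and 13 counts in Em- cells. Trim43c had 14 and 11 counts in Em+ cells, against 6 and 14 counts in Em- cells, and lies on the opposite strand of a non-coding gene. Neither copy was called, and reads shared among the 3 may have been divided by counting.

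Trim30a, an interferon-induced SPRY gene that restrains NF-kB signals in mouse, had 22 and 17 counts in the Em+ libraries, against 3 and 3 counts in the Em- libraries. Its log2 fold change was 2.73 in the fit without a minimum (edgeR SE 0.50, adjusted p = 0.0121), and 2.61 to 2.84 when any 1 library was left out. In the Ensembl table its longest transcript had 12 and 9 counts in Em+ cells, against 1 and 1 counts in Em- cells. That table also lists Trim30b, which has no RefSeq entry, with 6 and 6 against 1 and 2 counts. Of the 50-base stretches of Trim30a, 5.98% occur in Trim30d. Whether the RefSeq counts of Trim30a hold reads of its paralogs was not tested. At a mean of 0.0804 FPKM Trim30a was among the lowest members. It belongs to a group of 6 members on chromosome 7 between 104218795 and 104507849, with Trim6, Trim34a, Trim34b, Trim12c and Trim30d. Trim30d had 9 and 14 counts in Em+ cells, against 5 and 4 counts in Em- cells. Trim34a had 41 and 39 counts in Em+ cells, against 41 and 35 counts in Em- cells, and Trim34b had 27 and 19 counts in Em+ cells, against 18 and 24 counts in Em- cells. Trim34a and Trim34b share 39.8% and 56.8% of their 50-base stretches with each other, so their split is uncertain. Within this group, values thus ran from near equality for Trim6 and Trim34a to the change of Trim30a.

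**Figure D5:**
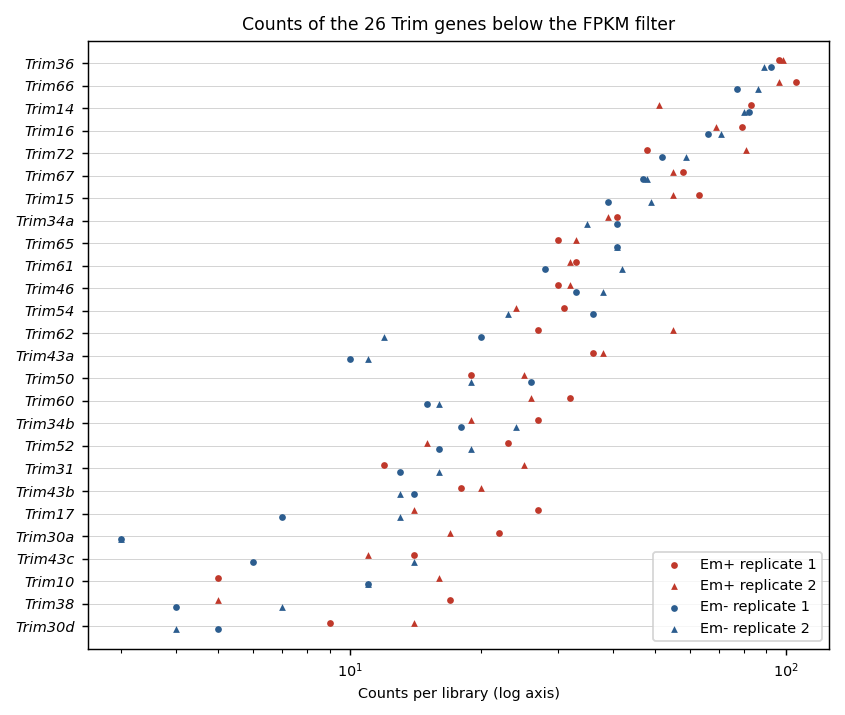
Counts per library (log axis) of the 26 Trim genes with a mean under 1 FPKM, ordered by their total; red points are Em+ and blue points Em- libraries. Trim43a (36 and 38 against 10 and 11 counts) and Trim30a (22 and 17 against 3 and 3 counts) show the groups apart, and most other genes have them mixed or adjoining.

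No other member below the minimum level was called in the fit without it. Trim62 had 27 and 55 counts in Em+ cells, against 20 and 12 counts in Em- cells, a log2 fold change of 1.44 in the fit without a minimum (edgeR SE 0.44, adjusted p = 0.0892). Trim17, known in neurons, had 27 and 14 counts in Em+ cells, against 7 and 13 counts in Em- cells. Of the 50-base stretches of Trim17, 17.7% occur in Hist3h2a, so its reads are less certain. Trim72, which patches torn membranes in muscle, had 48 and 81 counts in Em+ cells, against 52 and 59 counts in Em- cells. The libraries of these 3 scattered within a fraction. Trim66, a PHD-bromodomain member of testis, had 105 and 96 counts in Em+ cells, against 77 and 86 counts in Em- cells. Trim15 had 63 and 55 counts in Em+ cells, against 39 and 49 counts in Em- cells. Trim36, a ligase of the sperm acrosome, had 96 and 98 counts in Em+ cells, against 92 and 89 counts in Em- cells. These 3 had both Em+ libraries above both Em- libraries by small margins. Trim14, an antiviral adaptor, had 83 and 51 counts in Em+ cells, against 82 and 80 counts in Em- cells. Trim16 had 79 and 69 counts in Em+ cells, against 66 and 71 counts in Em- cells. Trim65, a ligase of the RNA sensor MDA5, had 30 and 33 counts in Em+ cells, against 41 and 41 counts in Em- cells. Trim65 overlaps Trim47 on the same strand and shares 3.05% of its 50-base stretches with it, so their reads may have been divided by counting. The rest, Trim10, Trim31, Trim38, Trim46, Trim50, Trim54 and Trim67, had 4 to 58 counts in any library, and none was called.

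Trim52 depended on the transcript model. In the RefSeq table its model of 588 bases had 23 and 15 counts in Em+ cells, against 16 and 19 counts in Em- cells, and the groups overlapped. The Ensembl table lists a model of 3083 bases at the same locus (chromosome 14, 106106198 to 106109280), which had 570 and 550 counts in Em+ cells, against 409 and 462 counts in Em- cells. There it was called higher, with a log2 fold change of 0.50 (edgeR adjusted p = 0.0293), and also in the ENCODE table (0.49, adjusted p = 0.029).

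Of the other family genes and the ubiquitin genes listed, 1 was called, and counts this small do not set them apart from the background of 3.82% higher and 0.822% lower. Of 7 family genes with other symbols, 4 were tested and edgeR called 0, as did DESeq2 and limma, with 0 higher and 1 lower at an unadjusted p under 0.05, and their median log2 fold change was 0.06 against 0.00 over all genes. Without Em+ replicate 1 there was 1 call. Pml, the organiser of nuclear bodies, had 33.9 and 40.4 CPM in Em+ cells, against 36.8 and 34.4 CPM in Em- cells. Mid2, a microtubule-bound ligase below the minimum level, had 26 and 23 counts in Em+ cells, against 10 and 13 counts in Em- cells. Mefv had no entry. Of 23 ubiquitin, E1 and E2 genes that serve RING ligases, 18 were tested, and 1 was higher and 0 lower, with 1 lower at an unadjusted p under 0.05, 0 lower by DESeq2 or limma, and a median of -0.02. The count was 6 without Em+ replicate 1 and 0 without TMM scaling or in either limma fit. The called gene was Ube2w, an E2 that places ubiquitin on protein N-termini and, in human cells, primes Trim21. Ube2w had 41.7 and 50.2 CPM in Em+ cells, against 30.0 and 29.5 CPM in Em- cells, a log2 fold change of 0.62 (edgeR SE 0.10, adjusted p = 0.0166). The call held in each fit that lacks a library and was lost without TMM scaling (0.45, adjusted p = 0.065), in limma on log2(FPKM + 1) (0.39, adjusted p = 0.199) and on log2(FPKM + 0.1) (0.45, adjusted p = 0.201).

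A list of interferon-induced genes, which holds no Trim gene, gave no call in the full fit, where the background was 3.82% higher and 0.822% lower. Of 20 listed, 9 were tested and edgeR called 0, as did DESeq2 and limma, with 1 higher and 2 lower at an unadjusted p under 0.05 and a median log2 fold change of -0.07 against 0.00 over all genes. Their count of calls was 4 without Em+ replicate 1, 2 without Em+ replicate 2 and 1 without Em- replicate 2, and it was 2 in the fit of all symbols that called Trim30a, 2 with a mean FPKM of at least 0.1, and 1 without TMM scaling, with the highest transcript per symbol or with the replicate block. The list summed to 309 and 297 CPM in Em+ cells, against 309.5 and 309.4 CPM in Em- cells. Ddx58, which encodes the RIG-I sensor that Trim25 modifies, had 13.3 and 12.1 CPM in Em+ cells, against 19.5 and 17.2 CPM in Em- cells, a log2 fold change of -0.53 (edgeR SE 0.12, adjusted p = 0.0532). Its groups did not overlap. Mx1, below the minimum level, had 21 and 24 counts in Em+ cells, against 4 and 6 counts in Em- cells. Isg15 had 1 and 1 counts in Em+ cells, against 3 and 0 counts in Em- cells, so the list held genes with values on either side, and Ifih1 had no entry.

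Many members lie beside each other on a chromosome. With a gap of at most 200 kb between neighbours, 22 members fell into 7 groups, and Trim75 and Trim12c lay in 2 of them. The largest after that of chromosome 7 was a group of 5 on chromosome 17 between 36837146 and 36910217, with Trim26, Trim15, Trim10, Trim40 and Trim31. Of these Trim26 and Trim40 were tested and neither was called. Trim68 and Trim21 adjoin on chromosome 7, and the groups of Trim68 stood apart while those of Trim21 overlapped.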

How the data were processed

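Total RNA of sorted cells was depleted of ribosomal RNA and made into stranded libraries, per the labels' protocols. The authors deposited 4 tables (RefSeq, known-gene, Ensembl, ENCODE models) that hold, per the file headers, raw counts and FPKM for every transcript and library. The submitters' processing notes name Bowtie2 and mm10. Not given in the sources used here are the counting program, its use of strand and its handling of reads that match several genes, so overlapping and near-identical genes are uncertain. The count column of Em- replicate 1 in the RefSeq and Ensembl tables holds only 0, so its counts were computed as FPKM times length times a library total recovered from the known-gene table. The same calculation returned the deposited count for all 69 member transcripts in each of the other 3 libraries. For Em- replicate 1 it equalled the known-gene count for 29 of 29 comparable member transcripts.

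Counts and FPKM were summed per symbol. The 12050 symbols with a mean FPKM of at least 1, which hold 98.61 to 98.99% of counts, were tested with edgeR 4.0.16 (R 4.3.3, glmQLFit and glmQLFTest, TMM, no covariate, two-sided), with Benjamini-Hochberg adjustment and a threshold of 0.05. The common biological coefficient of variation was 0.0731. CPM were scaled to TMM-adjusted totals of tested genes, and SEs come from the F statistic. Alternatives used RLE, DESeq2 1.42.0, limma 3.58.1 on log2(FPKM + 1) or log2(FPKM + 0.1), other filters and tables, a replicate block, and leaving out each library. A further alternative used no TMM scaling and took depth from the library totals behind FPKM. With 1 library left in a group, the lone library is assumed to vary like the other group. The groups and replicate numbers came from titles. Starts were shifted to count from 1. Shared stretches of 50 bases and overlapping genes come from GENCODE M21. Domain classes come from general knowledge.

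Members, gene lists and tests were chosen with earlier results of these data known. Full statistics are given for called members, the 12 members of smallest p and the 8 of highest mean FPKM. Outside this rule they are also given for Trim33, Trim13, Trim60 and Trim61. Trim43a, Trim30a, Trim52 and Trim62 were added after their values were seen.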

Additional observations from a re-analysis of the deposited data

Results flagged for a closer look

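Trim30b has no entry in the RefSeq table, and reads were assigned to it in tables that the comparisons do not use. In the Ensembl table its transcript on chromosome 7, from 104361411 to 104369782, had 6 and 6 counts in the Em+ libraries, against 1 and 2 counts in the Em- libraries. In the ENCODE table the same transcript had 6 and 6 counts in the Em+ libraries, against 1 and 2 counts in the Em- libraries. Both entries rest on the same reads, and so few counts allow no firm fold. The gene lies between Trim12c and Trim30a. Groups of 2 libraries are too small to look for a single library that stands apart, and the series has 1 contrast, so no difference between contrasts could be examined.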

How the results depend on the processing

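Over the named Trim genes and all alternatives, 260 of 300 values kept their direction and side of the threshold, 20 passed it only in the alternative, 7 passed it only in the full fit and 13 changed sign. Against 2 higher members in the full fit there were 1 without TMM scaling, 1 in limma on log2(FPKM + 1), 1 on log2(FPKM + 0.1), 4 without a filter and 4 with the replicate block, and 1 to 6 when a library was left out. Against 1 lower member there were 2 without TMM scaling, 0 in limma on log2(FPKM + 1), 3 with the replicate block, and 1 to 4 when a library was left out. The 559 calls over all genes were 182 and 232 in limma with pseudocounts of 1 and 0.1, 1178 without a filter, 1109 with a mean FPKM of at least 0.1, 1552 with the replicate block, and 490 to 4992 when a library was left out. The causes were not tested, except that the looser filters test more genes. Without TMM scaling and in limma on log2(FPKM + 1) and log2(FPKM + 0.1) the median of all genes shifted to -0.156, -0.135 and -0.16 on the log2 scale. In these same 3 settings Trim6 was at -0.087, -0.092 and -0.095, Trim44 at -0.075, -0.079 and -0.083, Trim25 at -0.103, -0.099 and -0.104, and Trim24 at -0.021, -0.021 and -0.022, each above that shift. Trim27, at -0.03 in the full fit, was at 0.017 without Em+ replicate 2 and between -0.074 and 0.017 when any library was left out. The full fit did not take the replicate numbers as pairs. Deviations of same-numbered libraries had a correlation of 0.0235 over 12050 genes. Counting noise can lower such a value, so it does not settle whether these libraries are pairs. With the block Trim75, Trim12c and Trim2 kept their calls (6.02, 0.63 and -0.57). Trim68 (0.42), Trim59 (0.44), Trim63 (-0.35) and Trim7 (-0.33) were called there too. Leaving out each library in the fit without a filter was added after seeing the data and kept Trim43a and Trim30a called. At 2 libraries a group and at these counts, changes of the members below 1 FPKM are measured poorly.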

Other observations

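Trim9, a COS-box ligase of axons, has no entry in the RefSeq table. In the Ensembl table it had 4 and 3 counts in the Em+ libraries, against 2 and 1 counts in the Em- libraries. In the ENCODE table it had 6 and 5 counts in the Em+ libraries, against 3 and 3 counts in the Em- libraries, too few to compare.

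Among the partners of the NHL ligases, Ago2, an Argonaute that carries microRNAs, had 111 and 161 CPM in Em+ cells, against 103 and 103 CPM in Em- cells, a log2 fold change of 0.40 (edgeR SE 0.15, adjusted p = 0.166). Ago3 had 32.8 and 46.1 CPM in Em+ cells, against 26.7 and 30.7 CPM in Em- cells, a log2 fold change of 0.46 (edgeR SE 0.16, adjusted p = 0.139). Without Em+ replicate 1, 9 genes of that list were called, against 0 in the full fit. As for Trim59, Em+ replicate 2 held the highest value of both. The part of that library in these values was not tested, and both genes were named after their values were seen.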
